A study of Mus musculus with 16 samples.

Results

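Open chromatin regions of haematopoietic progenitors that carry the leukaemia fusion gene NUP98-HOXD13 were described against those of wild-type progenitors of the same set of samples. The comparison used 4 of the 16 samples of the series, 2 labelled wild type and 2 labelled NUP98-HOXD13, all from mice 21 days old and labelled as haematopoietic progenitors of the multipotent kind. Each group had 1 deposited list of ATAC-seq peaks for its 2 samples, so no value below has a replicate error and no test between genotypes was possible. The labels name neither the promoter that drives the fusion gene, nor the mouse line, nor the number of animals behind a sample, and state no allele shared by mutant and control mice. A second pair of groups of the same set, Flt3-ITD and NUP98-HOXD13/Flt3-ITD (2 samples and 1 list each), carried an internal tandem duplication of the receptor tyrosine kinase Flt3 and served as a further look at the fusion gene with other lists. NUP98-HOXD13/Flt3-ITD is called the double mutant below. A second wild-type list came from the other set of samples, called set 1, and the labels do not say how the sets differ. Members were the peaks of the NUP98-HOXD13 and wild-type lists on chromosomes 1 to 19, merged where they overlapped by at least 1 bp, which gave 98701 regions of the 118981 found over all 8 lists of the series.

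ATAC-seq uses the Tn5 transposase, which inserts sequencing adapters into accessible DNA, so that peaks mark promoters, enhancers and other open elements. NUP98-HOXD13 joins the phenylalanine-glycine repeats of a nucleoporin to the DNA-binding homeodomain of HOXD13, a transcription factor of the limb and posterior body axis. NUP98 fusions are known to bind chromatin at HOX genes and at genes of the MEIS and PBX cofactors and to hold these genes active, in part through MLL and NSL chromatin complexes. HOX genes lie in 4 clusters, are high in stem and early progenitor cells and are normally silenced, under polycomb control, as blood cells mature.

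Some promoters at which the lists differed are printed here because results below turn on them. Each is the RefSeq sequence of 250 bases before a gene's start (build GRCm38.p6), read 5′ to 3′ along the gene. Capitals mark matches, on either strand, to the letters of 6 motifs given below, namely HOX with PBX, MEIS, RUNX, GATA, ETS and AP-1. They are ETS letters in Hoxc4 and Tank, and GATA and then AP-1 letters in Mnat1. The Hoxd4, Hoxa13 and Hoxd13 windows hold none of these letters, and matches to the SP and E-box letters were not marked. Hoxc4 lay in a region that both lists held and that ranked higher in NUP98-HOXD13, Hoxd4, Hoxa13 and Mnat1 lay in regions only NUP98-HOXD13 held, and Hoxd13 and the Tank start shown in regions only wild type held.
Hoxc4, chr15:103034145-103034394, plus strand: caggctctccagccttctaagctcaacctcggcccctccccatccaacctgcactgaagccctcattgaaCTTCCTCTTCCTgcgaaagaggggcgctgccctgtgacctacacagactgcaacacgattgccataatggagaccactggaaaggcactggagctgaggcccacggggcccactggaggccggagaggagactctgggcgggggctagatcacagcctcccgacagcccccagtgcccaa
Hoxd4, chr2:74721728-74721977, plus strand: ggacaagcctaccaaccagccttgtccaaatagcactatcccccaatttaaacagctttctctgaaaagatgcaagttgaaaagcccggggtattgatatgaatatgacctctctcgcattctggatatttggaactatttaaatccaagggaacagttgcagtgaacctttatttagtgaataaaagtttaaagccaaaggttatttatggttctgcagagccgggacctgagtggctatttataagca
Hoxa13, chr6:52260881-52261130, minus strand: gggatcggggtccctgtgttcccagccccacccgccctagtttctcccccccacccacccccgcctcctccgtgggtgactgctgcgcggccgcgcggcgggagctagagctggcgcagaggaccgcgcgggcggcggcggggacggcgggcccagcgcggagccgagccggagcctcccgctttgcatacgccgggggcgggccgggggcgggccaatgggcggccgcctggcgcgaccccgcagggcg
Mnat1, chr12:73123467-73123716, plus strand: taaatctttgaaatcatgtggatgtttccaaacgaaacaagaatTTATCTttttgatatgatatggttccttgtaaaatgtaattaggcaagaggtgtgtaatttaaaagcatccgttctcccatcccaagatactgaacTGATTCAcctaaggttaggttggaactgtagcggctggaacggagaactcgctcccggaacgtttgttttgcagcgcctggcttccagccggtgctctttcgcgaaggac
Hoxd13, chr2:74667975-74668224, plus strand: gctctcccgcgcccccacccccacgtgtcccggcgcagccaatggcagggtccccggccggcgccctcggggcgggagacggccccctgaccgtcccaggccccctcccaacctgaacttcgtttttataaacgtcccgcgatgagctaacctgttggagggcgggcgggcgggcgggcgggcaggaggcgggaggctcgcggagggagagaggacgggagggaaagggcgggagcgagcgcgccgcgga
Tank, chr2:61578307-61578556, plus strand: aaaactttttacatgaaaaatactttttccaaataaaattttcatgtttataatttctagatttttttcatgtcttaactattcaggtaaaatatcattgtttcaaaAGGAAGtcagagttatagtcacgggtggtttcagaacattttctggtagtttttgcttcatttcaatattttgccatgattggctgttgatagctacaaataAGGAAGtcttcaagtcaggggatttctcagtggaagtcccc
The Hoxa13 and Hoxd13 sequences were rich in G and C, at 80% and 74.4%, with 35 and 31 CpG dinucleotides. The Hoxd4 sequence had 40.4% and 3, and the Tank sequence 31.2% and 1, so HOX promoters of both kinds were among those that differed.

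Of 919 RefSeq miRNA hairpins on these chromosomes, 38 lay within 2 kb of a region held by NUP98-HOXD13 only, 74 near one held by wild type only and 267 near one held by both. Inside such regions lay 3, 11 and 107. Of all 98701 regions, NUP98-HOXD13 only held 11.2%, wild type only 21.5% and both 67.3%. Some hairpins, such as Mir375, lay near regions of different kinds, so the counts near regions can overlap. A pair of mature miRNAs is shown because their loci bear on the results, with the seed (bases 2 to 8) in capitals and with different seeds.
miR-196b-5p: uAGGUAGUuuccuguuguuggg
miR-744-5p: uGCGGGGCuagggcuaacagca
Mir196b lies in the HOXA cluster, and the region 241 bp from its hairpin was in both lists, at percentile 55.2 of the full wild-type list and 64.1 of the full NUP98-HOXD13 list. Mir744 lies inside a region at Map2k4, a stress kinase gene (chr11:65734593-65735135), that wild type held at 123 (−log10 p of the peak, higher for stronger peaks) and NUP98-HOXD13 lacked, while the double mutant held it at 58.8.

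The wild-type list was the longer. It held 134913 peaks, which merged into 88774 regions over 52.3 Mb, against 121831 peaks and 78405 regions over 47.5 Mb for NUP98-HOXD13. The median −log10 p of a peak, the value of the authors' peak caller, was 38.6 in wild type and 24.7 in NUP98-HOXD13, and the median widths of a region were similar, at 519 and 532 bp. Read depth was unknown, and −log10 p moves with depth, so regions are compared by percentile within their own list, 100 being the highest. Genes that mark multipotent progenitors, Kit, Cd34, Flt3, Gata2, Meis1, Hlf and Mecom, all had regions in both lists, and the best region of each reached percentile 85.7 to 99.5 in wild type and 86.5 to 98.6 in NUP98-HOXD13. Kit, the stem cell factor receptor, had 14 regions in wild type and 7 in NUP98-HOXD13, whereas Cd34 had 12 and 13. The lists pool all cells of a sample, so a changed share of cell types and changed accessibility within a type cannot be told apart.

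Most open regions were common to both genotypes, and those that differed were mostly weak. NUP98-HOXD13 and wild type shared 66418 regions (67.3%). NUP98-HOXD13 alone held 11062, the gained regions, which is 11.2% of all regions, and wild type alone held 21221, the lost regions, 21.5%. Gained regions had a median percentile of 29.4 in the NUP98-HOXD13 list, and 87.7% of them lay below percentile 50. Lost regions had a median of 33.5 in the wild-type list, with 81.0% below percentile 50. Both kinds were narrow, at a median of 355 and 368 bp, against 578 bp (NUP98-HOXD13) and 587 bp (wild type) for shared regions.

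The surplus of lost over gained regions depended on how the lists were matched. With the 121831 highest peaks of each list it hardly moved, at 11.2% gained and 21.3% lost, and most of the 13082 wild-type peaks left out lay in regions that kept another peak. With equal numbers of merged regions, 78405 from each list, a setting chosen after seeing the data, the shares were 14.9% gained and 15% lost. The cause was not tested. A strong region, one whose best peak was in the top 25% of the peaks of its own list, was gained in 95 cases (0.0963% of all regions) and lost in 324 (0.328%). With equal numbers of regions the strong counts were 40 and 65, but there the top 25% was taken over merged regions. That cut is stricter, so these counts do not differ by the matching alone. Against the set-1 wild-type list, which is shorter than both, the balance turned, to 18128 gained and 12171 lost regions and to 352 strong gains and 93 strong losses.

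The pair of wild-type lists gave a yardstick for lists of the same genotype, although it also holds any difference between the sets. With the 110352 highest peaks of each list, NUP98-HOXD13 and wild type shared 68.7% of their regions, and the wild-type lists shared 69.5%. Of the wild-type regions, 21.99% were missing from NUP98-HOXD13 and 24.1% from the set-1 wild type. Between percentiles 70 and 80 the missing wild-type regions were 236 of 9491 and 242, between 80 and 90 they were 65 of 9758 and 42, and above 90 they were 6 of 10299 and 2. Of the NUP98-HOXD13 regions 14.3% had no wild-type partner, and of the set-1 wild-type regions 10.3% had none. Between percentiles 70 and 80, 97 of 9213 NUP98-HOXD13 regions (1.05%) had no partner in wild type, against 9 of 9238 (0.0974%) of the set-1 wild type. Between 80 and 90 the counts were 33 and 1, and above 90 they were 1 and 0. Against the double mutant, 18.5% of all these NUP98-HOXD13 regions had no partner, with 82 of the same 9213 (0.890%), 11 of 9480 and 1 of 10100 in these bins. Regions without a partner were therefore also found between the lists that share the fusion gene. The difference between these shares was not tested, since each rests on 1 pair of lists.

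**Figure D1:**
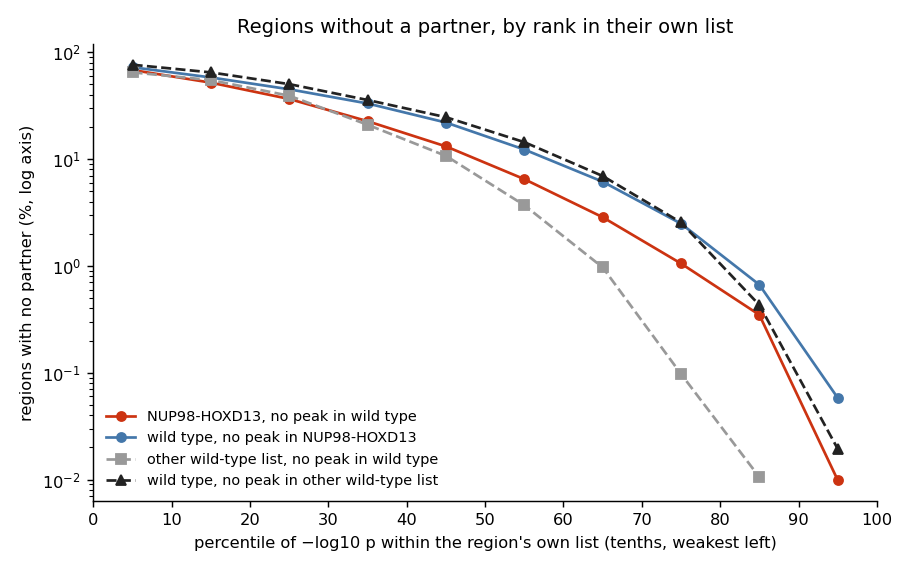
Share of regions with no overlapping region in the other list (vertical, percent, log axis) by percentile of the region in its own list (horizontal, bins of 10 points), with the 110352 highest peaks of each list. Points are bins and a bin at 0 is not drawn. The NUP98-HOXD13 line leaves the line of the other wild-type list above percentile 50, while both lines of set-2 wild-type regions stay close together up to percentile 80.

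Gained and lost regions lay mostly away from promoters. Promoter windows (250 bases before to 50 after a RefSeq start) were overlapped by 256 gained regions (2.31%), 609 lost regions (2.87%) and 11374 shared regions (17.1%). Counted by window, 303 of 31396 promoter windows lay in a gained region (0.965%) and 674 in a lost one (2.15%). The 250 bases before the start had a median of 5 CpG dinucleotides at gained and 6 at lost windows, against 16 at shared and 2 at windows with no region. The SP letters GGGCGG stood in 28.1% of gained and 32.9% of lost windows, in 58.8% of shared and in 33.0% of all windows. The ETS letters AGGAAG stood in 37.95% of gained and 35.6% of lost windows, against 28.4% of shared and 29.6% of all. Of all 31396 windows, 15777 had no region. The HOX with PBX letters TGATNNAT were at 5.28% in gained, 6.97% in lost, 3.16% in shared and 7.64% in all windows. For the MEIS letters TGACAG these shares were 21.5%, 16.2%, 13.5% and 15.7%. The RUNX letters TGTGGT stood in 12.9% of gained, 10.8% of shared and 14.0% of all windows, and the GATA letters AGATAA in 12.5%, 5.16% and 9.94%. The AP-1 letters TGANTCA stood in 20 of 303 gained windows and in 6.77% of all, and the E-box letters CACGTG in 7.92% and 6.02%. All motifs were searched on both strands over the 250 bases, and matches of different motifs may overlap. A match is a description of the letters and not a bound site. Among protein-coding genes, the region at the Mnat1 promoter, a kinase assembly factor gene, was at 74.6 in NUP98-HOXD13 and 37.8 in the double mutant, with 7.55 in Flt3-ITD and no peak in set-1 wild type. The region at 1 of the start sites of Tank, an adaptor gene of innate immune signalling, was at 184 in wild type, 95.8 in set-1 wild type and 29.3 in Flt3-ITD, and absent from both fusion lists. It covered 2 of the 4 Tank windows, and the other 2 lay in regions that both lists held.

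Gained regions were frequent in the HOX clusters, above all in HOXC and HOXB. Of the 92 regions nearest to the 41 genes of the 4 clusters, 27 were gained (29.3%) and 18 lost (19.6%). Over all 89509 regions with a protein-coding gene within 100 kb, 10.8% were gained and 20.7% lost. The HOXC cluster had 12 gained and 4 lost of 22 regions, HOXB 7 and 1 of 18, HOXA 3 and 5 of 27, and HOXD 5 and 8 of 25. No gained HOX region was strong, and their percentiles reached 65.4 at most. The HOXC and HOXB excess of gains stood with equal numbers of regions (13 of 19 and 7 of 18 gained, 14.4% over all) and with the set-1 wild type (11 of 20 and 10 of 21 gained, 19.1% over all). The clusters were listed because of the fusion gene and with earlier results of these data known, so their direction is a description.

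In HOXC, the shared regions from Hoxc6 to Hoxc4 ranked higher in NUP98-HOXD13. Single percentiles here are those of the full lists, and shifts are taken with equal numbers of peaks. Hoxc6, Hoxc5 and Hoxc4 encode homeodomain factors of the middle and anterior part of the cluster. The leading region lay inside Hoxc6 (chr15:102999065-102999912), at −log10 p 26.6 and percentile 39.0 in wild type and 176 and 91.8 in NUP98-HOXD13. It was at 24.3 in set-1 wild type, had no peak in Flt3-ITD and was at 189 in the double mutant, so both fusion lists were high and the lists without the fusion were low or empty. The Hoxc4 promoter region (chr15:103033761-103034743), whose sequence with 2 ETS matches in a row is printed above, went from 35.5 in wild type to 73.3 in NUP98-HOXD13. It was at 22.8 in set-1 wild type, 10.8 in Flt3-ITD and 77.1 in the double mutant. The Hoxc10 region (chr15:102966384-102966862) had 37.5 in wild type and 66.0 in NUP98-HOXD13, and 56.4 in the double mutant, with no peak in Flt3-ITD or set-1 wild type. With equal numbers of peaks, the 6 shared HOXC regions ranked higher in NUP98-HOXD13 by a median of 33.4 points, where all 66409 shared regions had a median of 0.18. At least 20 points were reached by 4 of them, those at Hoxc10, Hoxc6, Hoxc5 and Hoxc4. Their shifts were 32.9, 59.4, 34.0 and 36.8 points. The Hoxc8 and Hoxc9 regions shifted by 6.79 and 3.21 points, so all 6 ranked higher.

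Gained regions lay in between, some of them directly beside the leading region. A run of 3 gained regions with no other region between them spanned 16.1 kb over Hoxc5 and Hoxc4, and all 3 were present in the double mutant and absent from Flt3-ITD and set-1 wild type. The highest of them (chr15:103018708-103019030) lay inside Hoxc4, at 42.0 in NUP98-HOXD13 and 46.7 in the double mutant. Inside Hoxc6, a gained region beside the leading one (chr15:102998639-102998981) had 28.5 in NUP98-HOXD13, 38.2 in the double mutant and 24.3 in set-1 wild type. A single set-1 wild-type region overlapped both, so their count as separate regions rests on the merging rule. The margin of 500 bp was not applied to the HOX counts. Within 500 bp of the leading region lay the gains at chr15:102998639-102998981 and chr15:102999997-103000258. A gain nearest to Hoxc4 (chr15:103085959-103086972) lay within 500 bp of a loss (chr15:103087047-103087630). The class of such regions rests on the rule for overlap. Of the 12 gained HOXC regions, 8 were in the double mutant, 4 in set-1 wild type and 0 in Flt3-ITD. Over all 9661 gained regions with a gene, 41.7% were in the double mutant, 25.5% in set-1 wild type and 12.1% in Flt3-ITD. The gain at chr15:102999997-103000258 overlapped the double-mutant region at 189 that the leading region also overlapped. Hoxc4 had 5 gained and 2 lost of 8 regions, and Hoxc6 5 and 1 of 7. The lost Hoxc6 region (chr15:103002844-103003390) was at 24.9 in wild type and 16.8 in the double mutant. The lost Hoxc4 regions were at 14.2 (chr15:103060686-103061006) and 8.50 (chr15:103087047-103087630) in wild type. The double mutant lacked the former and held the latter at 28.4.

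In HOXB, gained regions lay over Hoxb3 (2 of them), Hoxb7, Hoxb9 and Hoxb2. A further 2 were nearest to Hoxb1 but 44889 and 45339 bp away from it. With genes within 20 kb, 5 of 14 HOXB regions were gained. The highest gain was inside Hoxb3 (chr11:96306897-96307237), at 36.0 in NUP98-HOXD13 and 80.1 in the double mutant, with no peak in wild type, set-1 wild type or Flt3-ITD. Hoxb7 (chr11:96285183-96285700) followed with 24.5 and 21.5 in the fusion lists, and Hoxb9 (chr11:96270976-96272259) with 21.3 and 40.1, plus 18.8 in set-1 wild type. Of the 7 HOXB gains, 6 were in the double mutant, 1 in set-1 wild type and 0 in Flt3-ITD and in the other 3 lists of set 1. Both gains nearest to Hoxb1 overlapped the same double-mutant region, at 13.8, so that region was counted for each. The shares over all gained regions with a gene were 41.7%, 25.5% and 12.1% for the double mutant, set-1 wild type and Flt3-ITD. At the promoter of Hoxb4, a gene that expands stem cells when overexpressed, the region stood at percentile 83.0 in wild type and 78.8 in NUP98-HOXD13, a shift of -2.47 points with equal numbers of peaks. The only lost HOXB region (chr11:96284176-96284752), inside Hoxb8, was at 23.3 in wild type and 17.8 in set-1 wild type.

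HOXA, the cluster most used by leukaemias, was already open in wild type. Of its 27 regions 19 were shared, and these ranked higher in NUP98-HOXD13 by a median of 11.7 points with equal numbers of peaks. The region beside Hoxa9 (chr6:52221449-52222459), the HOX gene most tied to myeloid leukaemia, shifted by 18.1 points, and a further one inside Hoxa9 (chr6:52225780-52226391) by 13.1. The Hoxa10 promoter region (chr6:52240117-52241032) shifted by -1.37 points, and the one near Hoxa11 (chr6:52246280-52246968) by -29.5. The Hoxa13 promoter, whose CpG-rich sequence is printed above, lay in a gained region (chr6:52260073-52261563) at 20.2 in NUP98-HOXD13 and 27.2 in the double mutant, and had no peak in wild type, set-1 wild type or Flt3-ITD. It was not particular to the fusion lists, since the mutant lists of set 1 held it at 24.6 (Flt3-ITD), 16.0 (Runx1-het) and 34.4 (Flt3-ITD with Runx1-het). The HOXA gained share depended on the setting, at 11.1% with all peaks, 19.2% with equal numbers of regions and 30.4% (7 of 23) with set-1 wild type.

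In HOXD, promoter regions of Hoxd13, Hoxd11 and Hoxd10 were lost, that of Hoxd9 was shared and that of Hoxd4 was gained. The Hoxd13 promoter region (chr2:74668120-74668910) was at 14.2 in wild type and 20.4 in set-1 wild type and had no peak in NUP98-HOXD13, Flt3-ITD or the double mutant. Both lists held the region 1380 bp beyond Hoxd13, at 43.5 in wild type and 41.5 in NUP98-HOXD13. Promoter regions of Hoxd11 and Hoxd10 were lost too, at 9.96 and 18.1 in wild type, and neither was in set-1 wild type. The Hoxd10 region was in the double mutant at 9.40 and in the set-1 list of Flt3-ITD with Runx1-het at 14.5, so it was absent from 1 fusion list only. Both lists held the Hoxd9 promoter region (chr2:74697510-74698520), at 16.1 in wild type and 12.7 in NUP98-HOXD13, and it ranked 12.9 points higher in NUP98-HOXD13 with equal numbers of peaks. The Hoxd4 promoter region (chr2:74721813-74722212) was gained, at 29.1 in NUP98-HOXD13 and 29.4 in the double mutant, with no peak in wild type, set-1 wild type or Flt3-ITD. The lost share of HOXD was 32.0% with all peaks, 19.05% with equal numbers of regions and 3 of 20 with set-1 wild type. None of these regions reads the fusion gene itself, so they do not check the labels. The Nup98 promoter region (chr7:102209662-102210816), shared with Pgap2, was among the highest in both lists, at percentile 99.2 in wild type and 99.6 in NUP98-HOXD13.

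**Figure D2:**
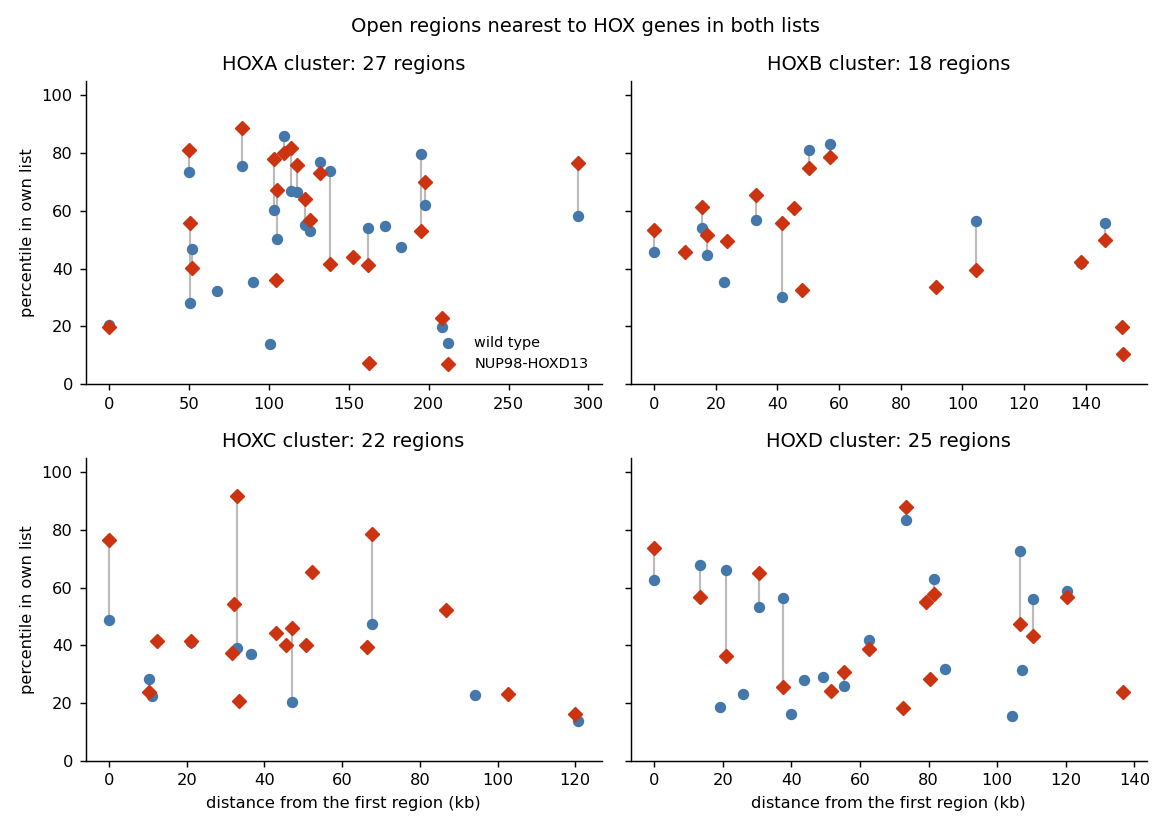
Percentile within its own full list (vertical) of each region nearest to a gene of the 4 HOX clusters, by distance from the cluster's first region (horizontal, kb), for wild type (circles) and NUP98-HOXD13 (diamonds); a line joins the values of a shared region. The HOXC panel shows 12 diamonds without a circle and the Hoxc6 region at percentile 91.8, and the HOXB panel shows 7 diamonds without a circle.

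The genes of the HOX cofactors had more lost and fewer gained regions than the background. MEIS and PKNOX proteins and PBX proteins are homeodomain factors that bind DNA together with HOX proteins. Of the 108 regions nearest to their 9 genes, 46 were lost (42.6%) and 9 gained (8.33%). The lost share was 31.9% with equal numbers of regions, where it was 14.3% over all regions with a gene, and 27.9% with set-1 wild type, where it was 13.5%. Meis2 lost 11 of 19 regions and gained 1, Pknox2 lost 11 of 25 and gained 4, and Meis1 lost 10 of 26 and gained 2. The 53 shared regions of these genes had a median shift of 0.02 points between the lists.

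The highest lost region of the cofactors lay inside Meis2 (chr2:115984917-115985701), at −log10 p 98.6 and percentile 74.0 in wild type. It was at 18.8 in set-1 wild type and 11.9 in Flt3-ITD and absent from NUP98-HOXD13 and the double mutant. A Pknox2 region (chr9:36905445-36905915) had the same pattern, at 65.8 in wild type, 23.8 in set-1 wild type and 6.2 in Flt3-ITD. At Meis1, the partner of Hoxa9 in leukaemia, the highest lost region (chr11:18818404-18818799) was 61629 bp from the gene, at 54.6 in wild type, 43.9 in set-1 wild type, 7.55 in Flt3-ITD and 16.2 in the double mutant, so it was absent from 1 fusion list only. Of the 46 lost regions, 19 were in set-1 wild type and 11 in the double mutant, and 11 were in the first and not in the second. That share, 23.9%, compares with 19.4% of all lost regions with a gene. The best region of Meis1 stayed at percentile 98.6 in wild type and 98.5 in NUP98-HOXD13.

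Genes of chromatin regulators and of the nuclear pore, with which NUP98 works, differed less from the shares over all genes, 10.8% gained and 20.7% lost. Polycomb genes had 19 gained (18.3%) and 16 lost of 104 regions, led by a gain inside Jarid2, a polycomb recruiter (chr13:44869501-44869753), at 60.0 in NUP98-HOXD13, 30.7 in the double mutant and 41.5 in set-1 wild type. MLL and NSL complex genes had 9 gained (13.8%) and 10 lost (15.4%) of 65, led by a gain inside Mllt10 (chr2:18195717-18196270) at 45.2, 53.1 and 30.1 in those lists. Nuclear pore genes had 7 gained (10.8%) and 11 lost (16.9%) of 65, so the gained share was that of all genes. Their highest loss was the Tpr region (chr1:150426143-150426600), at 61.3 in wild type, 30.1 in set-1 wild type and absent from NUP98-HOXD13, Flt3-ITD and the double mutant. Of the 7 nuclear pore gains, 4 were in set-1 wild type.

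Genes of stem cell self-renewal had 50 gained (11.8%) and 102 lost (24.1%) of 424 regions, near the shares over all genes. The list held 1 strong gain, nearest to Lmo2, a haematopoietic transcription cofactor and T-cell oncogene (chr2:103935749-103936316). It was at 77.5 in NUP98-HOXD13 and 82.5 in the double mutant, with no peak in wild type, set-1 wild type or Flt3-ITD. It overlapped the promoter window of Gm39896 and lay 21587 bp from Lmo2. A lost region close by (chr2:103932556-103932799) was at 67.9 in wild type and absent from set-1 wild type, Flt3-ITD and both fusion lists. Mecom, which encodes the stem cell factor EVI1, had 11 gained and 10 lost of 44 regions, and its highest gain (chr3:30066071-30066991) was at 46.3 in NUP98-HOXD13, 44.3 in the double mutant and 8.3 in set-1 wild type. Kit lost 8 and gained 1 of 15 regions, Tek, the angiopoietin receptor of stem cells, lost 4 and gained 0 of 6, and Slamf1 lost 4 and gained 0 of 7. Other genes of the list went the other way. Cd34 lost 0 and gained 1 of 13 regions, Fgd5 lost 1 and gained 3 of 11, and Mllt3 lost 2 and gained 3 of 26. The highest loss of the list covered the promoter of Slamf1, a signalling receptor of blood cells (chr1:171766920-171767629), at 81.9 in wild type, 46.9 in set-1 wild type, 7.0 in Flt3-ITD and 30.1 in the double mutant.

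Markers of cells that a progenitor gate could hold gave the following background. Gained and lost shares were 14.5% and 26.3% for B cell genes (76 regions), 11.8% and 25.9% for T and NK cell genes (85), 14.9% and 21.6% for granulocyte-monocyte genes (148) and 13.5% and 19.2% for megakaryocyte-erythroid genes (104). They were 16.2% and 14.7% for mast cell, basophil and eosinophil genes (68), 9.70% and 20.6% for dendritic cell genes (165) and 9.45% and 23.6% for stroma and endothelium genes (127). All 7 lists had shared regions, 45 to 115 of them, so open regions at such genes were common to both genotypes, and their part in the results was not tested. The strong losses among them lay in Ebf1, the B-lineage factor (chr11:44665095-44665852), at 111 in wild type and 29.0 in set-1 wild type, and in Ank1, an erythroid membrane gene (chr8:23024408-23024816), at 134 in wild type and 88.5 in set-1 wild type. The double mutant held the Ebf1 region at 18.7 and lacked the Ank1 region.

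Lymphoid priming genes had 38 gained (11.8%) and 80 lost (24.8%) of 322 regions, among them 11 lost of 35 at Bcl11a and 10 of 34 at Tcf4. Satb1 had 3 lost and 5 gained of 18 regions, and Tcf12 had 1 lost and 3 gained of 14. At Dntt, which encodes the terminal transferase of early lymphoid cells, a lost region (chr19:41053223-41053960) was at 81.5 in wild type, 45.5 in set-1 wild type and 46.3 in the double mutant. Fetal and neonatal progenitor genes had 13 gained (15.1%) and 23 lost (26.7%) of 86 regions, including gains inside Igf2bp3 and Hmga2, RNA-binding and chromatin proteins of fetal cells, at 27.1 and 29.5 in NUP98-HOXD13, both also in set-1 wild type. Leukaemia drivers and suppressors had 14 gained (8.75%) and 33 lost (20.6%) of 160, where all genes had 10.8% and 20.7%. The housekeeping control had 4 gained (7.14%) and 7 lost (12.5%) of 56.

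The study title names interferon, and the regions of interferon response genes were therefore counted. They had 9 gained and 9 lost of 96 regions (9.38% each), where all genes had 10.8% gained and 20.7% lost. With equal numbers of regions the shares were 14.1% gained and 5.43% lost, against 14.4% and 14.3% over all genes, so the gained share was near that of all genes and the lost share below it. Against set-1 wild type both were lower, at 11.8% and 7.53%, where all genes had 19.1% and 13.5%. With equal numbers of peaks, against wild type of the same set, their 78 shared regions had a median shift of 1.78 points. The highest gain was inside Iigp1, an interferon-induced GTPase gene (chr18:60375395-60376159), at 30.01 in NUP98-HOXD13 and 10.2 in the double mutant, and absent from set-1 wild type. The lost region nearest to Ifi44 (chr3:151638361-151638762), 92160 bp away, was at 68.3 in wild type and in none of set-1 wild type, Flt3-ITD and the double mutant. MHC class I genes had 8 gained (21.6%) and 4 lost (10.8%) of 37. Their 1 strong gain covered the H2-Q6 promoter (chr17:35424596-35425402), at 149.6 in NUP98-HOXD13, 116.5 in the double mutant, 8.6 in Flt3-ITD and 126 in set-1 wild type, so wild type of the same set was the list without it. The H2-Q genes are near-identical copies, and reads could be split among them.

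**Figure D3:**
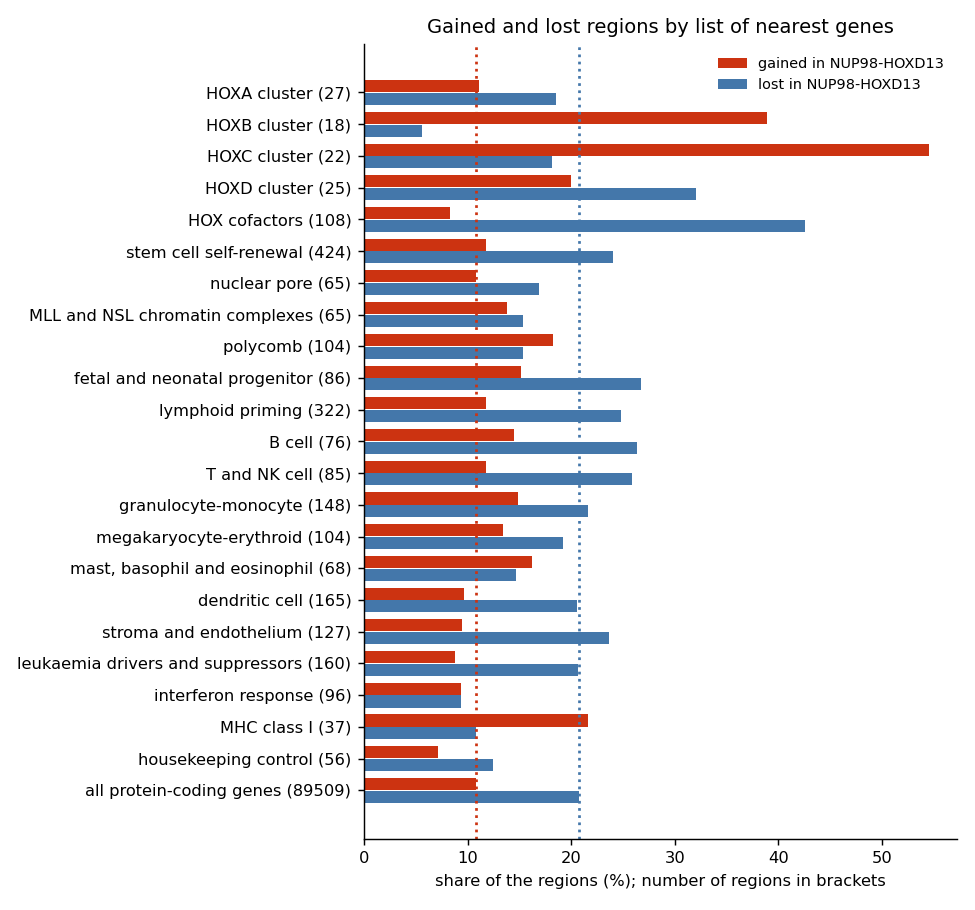
Share of regions gained (red) and lost (blue) in NUP98-HOXD13 against wild type, in percent, by list of nearest genes, with the number of regions in brackets; dotted lines mark the shares over all protein-coding genes, 10.8% and 20.7%. The HOXC and HOXB bars for gains reach 54.5% and 38.9%, and the bar for losses is longest for the HOX cofactors, at 42.6%.

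The other lists were searched for the strong gained and lost regions. Of the 95 strong gains, 90 were present in the double mutant, 13 in Flt3-ITD and 20 in set-1 wild type. Over all 26611 strong regions of the NUP98-HOXD13 list these lists held 99.8%, 96.1% and 98.7%. The share of gains held by the double mutant was thus no higher than for strong regions in general, and the shares held by Flt3-ITD and set-1 wild type were lower. Strong gains were chosen to lack a peak in wild type of the same set, and strong regions in general were not. These shares are therefore not like for like. A group of 50 gains was in the double mutant and none of the other 5 lists. Of the 324 strong losses, 290 were present in set-1 wild type and 274 in Flt3-ITD, and 187 in the double mutant. Over all 29964 strong regions of the wild-type list these shares were 99.0%, 96.5% and 98.4%. Strong losses were likewise chosen to lack a NUP98-HOXD13 peak, and strong regions in general were not. A group of 78 was present in every other list except the double mutant. Over all gained regions the picture was weaker. Of the 11062, 4458 were in the double mutant, 2655 in set-1 wild type and 1295 in Flt3-ITD, and 3555 were in no other list. Of all lost regions 36.4% were in set-1 wild type and 31.1% in the double mutant.

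The 10 highest gained regions that the double mutant also held and set-1 wild type lacked were led by the one 3815 bp from Klhl3, which encodes an adaptor of a ubiquitin ligase (chr13:57995654-57996411), at 157 in NUP98-HOXD13 and 116 in the double mutant. Next came Slc35f1 (149 and 78.1), Gramd1b, a sterol transporter gene (132 and 127), Morc1 (129 and 96.5) and Plekha5 (117 and 64.6). Slc24a2, Rab11fip1, Grxcr1 and Cobll1 followed at 109 to 116 in NUP98-HOXD13. The last was inside Ahr, the gene of the dioxin receptor (chr12:35510649-35511445), at 99.0 and 79.4. None of the 10 had a peak in Flt3-ITD, the shortest list, which held 13 of all 95 strong gains. The choice did not use Flt3-ITD, but it required that both wild-type lists lack a peak. In the other 3 lists of set 1, only the Morc1 region (10.04 to 20.7 in all 3) and the Ahr region (23.5 in Runx1-het) appeared.

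The 10 highest lost regions that set-1 wild type also held and the double mutant lacked were led by Mgat4b, which encodes a glycosyltransferase (chr11:50232837-50233472). It was at 403 in wild type, 176.5 in set-1 wild type and 50.9 in Flt3-ITD. Slco6d1, Adgrb1, Clint1 and Chrm3, the gene of a muscarinic receptor, followed at 345, 304, 274 and 273 in wild type. Olfr308, Cdcp3, Spata16, Npas3 and Gp2 were between 216 and 269. All 10 were also present in Flt3-ITD of set 2, at 23.2 to 59.4, and in Flt3-ITD of set 1, which the choice did not use. Over all 324 strong losses these lists held 84.6% and 96.0%. None of the nearest genes of these 20 regions is in the gene lists above.

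**Figure D4:**
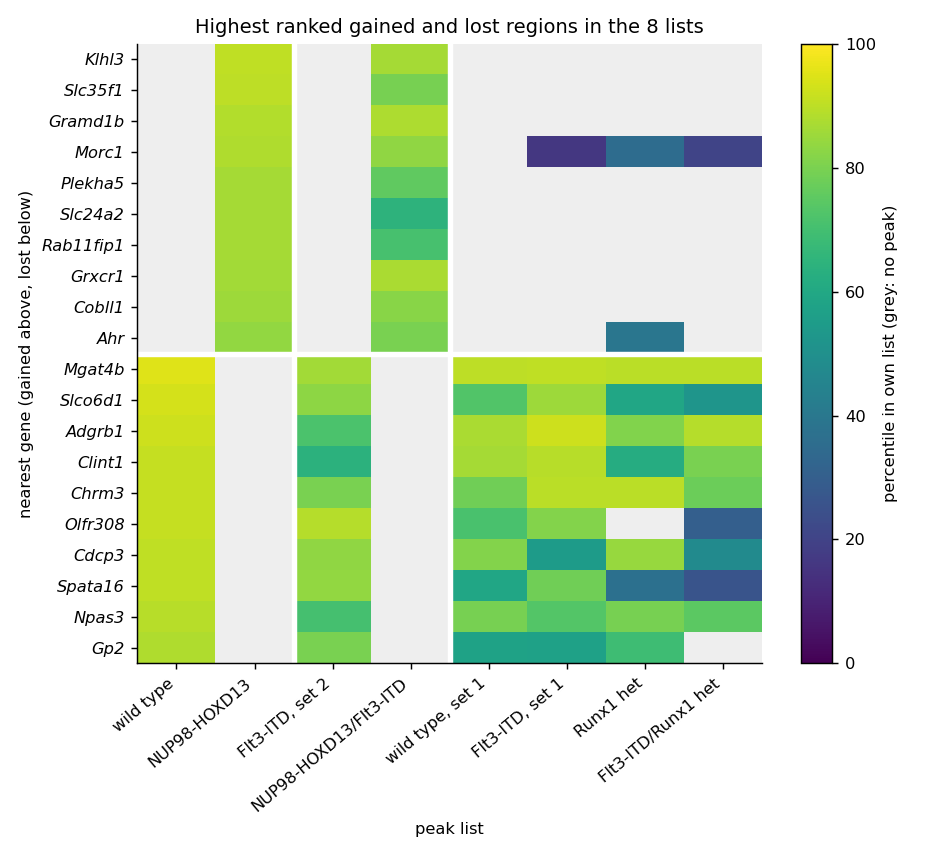
Percentile within each of the 8 peak lists (colour; grey where the list has no peak) of the 10 highest gained regions (upper block) and the 10 highest lost regions (lower block), named by nearest gene. The upper block is filled in the columns NUP98-HOXD13 and NUP98-HOXD13/Flt3-ITD with a few further cells for Morc1 and Ahr, and the lower block is filled in nearly every column but those 2.

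Shared regions differed in rank too. With 121831 peaks per list, 4380 of 66409 shared regions (6.6%) ranked at least 20 percentile points higher in NUP98-HOXD13 and 3758 (5.66%) at least 20 lower. At promoters these shares were 2.49% and 2.15% of 11374 regions. With 110352 peaks per list the middle 50% of shifts spanned 13.5 points, against 11.6 between the wild-type lists, and 14.6% against 10.7% moved by 20 points or more. The largest upward shifts were inside Ak7, an adenylate kinase gene (chr12:105759873-105760525), from 13.4 to 208 and by 80.2 points, near Trim52 (10.51 to 111) and near Rapgef2 (9.8 to 87.7). Near Pik3cg, the catalytic subunit of a leukocyte lipid kinase, a region (chr12:32142970-32143682) went from 9.1 to 74.8, and inside Adk, adenosine kinase, from 7.9 to 67.2. The next were near Nupr1, Gnai1, Rpl22l1, Pgap4 and Ust, by 66.8 to 72.9 points. Of these 10 regions, all were present in the double mutant, at 19.4 to 109, and 1, near Rpl22l1, was present in Flt3-ITD.

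The largest downward shifts were led by Gm2956 (162 in wild type, 7.7 in NUP98-HOXD13), Ppp1r26 (129.7 and 5.8), Tmem168 (119 and 5.2), Lrrc6 (141 and 7.7) and Trpc6, a cation channel gene (156 and 8.3). Near Gnas, the stimulatory G protein subunit, a region (chr2:174242272-174243040) went from 262 to 11.9. Mast4, Tnfaip8l3, Wdr38 and Dpysl3 had shifts of -59.8 to -58.9 points. Of these 10 regions 7 were present in the double mutant, among them Tnfaip8l3 at 73.2 there and 38.9 in Flt3-ITD.

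The fusion gene was then followed on the Flt3-ITD background, where NUP98-HOXD13/Flt3-ITD was set against Flt3-ITD. This pair shares no sample with the NUP98-HOXD13 and wild-type lists. The Flt3-ITD list was the shortest, so all 4 lists were cut to their 81961 highest peaks, which left 76005 regions of the NUP98-HOXD13 and wild-type lists. Of these 18.3% had a peak in NUP98-HOXD13/Flt3-ITD only and 7.29% in Flt3-ITD only. Regions gained in NUP98-HOXD13 were held by NUP98-HOXD13/Flt3-ITD only in 36.3% and by Flt3-ITD only in 7.94% of cases. Those that ranked at least 20 points higher gave 34.2% and 2.79%. Lost regions gave 18.75% and 23.7%, and those that ranked at least 20 points lower 15.6% and 12.2%. Each kind of difference was thus found in the same direction more often than over all regions, while 41.6% of gained and 41.0% of lost regions had no peak in either list of the pair. For gained and lost regions the opposite direction was no rarer than over all regions, at 7.94% against 7.29% and 18.75% against 18.3%. These shares were not matched for rank.

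Where both lists of the pair with Flt3-ITD had a peak, their ranks were compared. The median difference was +7.88 points for 2731 regions that ranked higher in NUP98-HOXD13 and -16.6 points for 3543 that ranked lower, against -0.44 points over all 45751. Lost regions that both lists of the pair held had a median of -19.1 points (1829 regions). Gained regions that both held had a median of -5.94 points (1254 regions), and 38.4% of them ranked higher in the double mutant. Of 43 strong gains in these shortened lists, 30 were gained and 0 lost with Flt3-ITD, and of 66 strong losses, 35 were lost and 4 gained.

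**Figure D5:**
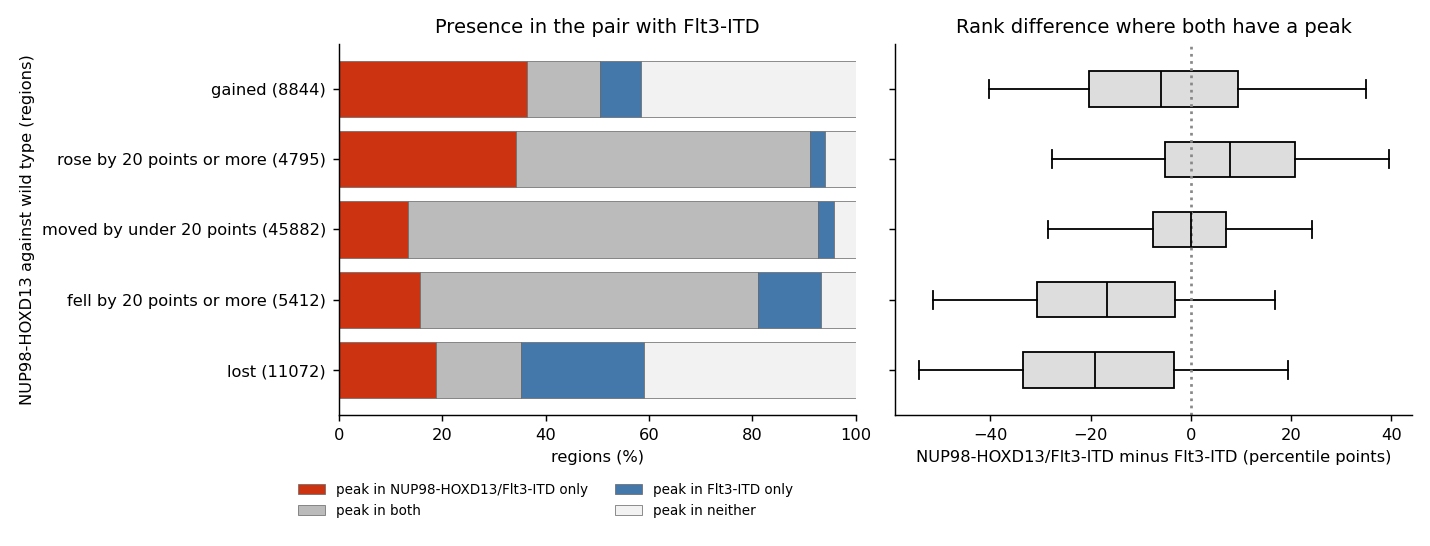
Regions grouped by their change between wild type and NUP98-HOXD13 (rows, number in brackets; rose and fell mean ranked higher and lower in NUP98-HOXD13), with 81961 peaks per list. Left, the percentage present in NUP98-HOXD13/Flt3-ITD only, in both lists, in Flt3-ITD only or in neither; right, the percentile difference between these lists where both have a peak (line, median; box, middle 50%; whiskers, 5% to 95%). The medians run from +7.88 points for regions that ranked higher to -19.1 points for lost regions, with gained regions at -5.94.

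The genes with the most gained or lost regions were long. Lrmda had 14 gained regions of 43, Foxp1, a transcription factor of lymphoid and stem cells, 13 of 73, Celf2 and Auts2 12 each, and Mecom, Sox5, Gpc6 and Wwox 11 each. Most losses fell to Nav2 (21 of 72), Macrod2 (19 of 44), Asic2 and Ptprn2 (17 each), Foxp1 (17), Ccser1 (16), with 15 each at Rbfox1, Itpr1, Ank2 and Arid1b. These genes span 338 to 1998 kb, against a median of 22.2 kb over all 16906 genes with a region. Asic2 and Ptprn2, both neuronal genes, gained 0 regions. Of the 16906 genes, 5704 had a gained and 8555 a lost region, and 3810 had both. By chromosome the gained share ran from 9.26% on chromosome 19 to 13.0% on chromosome 14, and the lost share from 19.3% on chromosome 7 to 23.8% on chromosome 9, so these shares differed little between chromosomes.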

How the data were processed

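ATAC-seq peaks were taken from the lists deposited for 8 groups of 2 samples, 1 list per group. Per the submitters' processing notes, Bowtie2 and MACS2 were used, with no version, and the build is named as GRCm38 and mm10. Not given in the sources used here are thresholds, read shifting, duplicate removal and pooling. The authors' lists hold, per peak, a fold over background (a ratio), −log10 p, a score (413 to 1000, meaning not stated) and other columns that were not used. The authors' −log10 p alone was used, to rank peaks within a list. Depth was unknown.

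Chromosomes X and Y were left out. On chromosomes 1 to 19, overlapping peaks (1 bp or more) were merged, and each region kept its best peak. A gained region had a peak in NUP98-HOXD13 only, a lost region in wild type only, and a strong one lay in the top 25% of its list. Regions were assigned to the protein-coding gene whose span lay nearest (RefSeq table, GRCm38.p6, no strand, so exons and introns were not known) within 100 kb, the shorter gene where spans overlapped. Of 367 distinct genes in 22 lists, 357 were matched on these chromosomes. No test was possible with 1 list per group. Members and lists were chosen with earlier results of these data known. Regions are named by rule: the 10 highest gains also in NUP98-HOXD13/Flt3-ITD and not in set-1 wild type, the 10 highest losses in set-1 wild type and not in NUP98-HOXD13/Flt3-ITD, the 10 shared regions that moved most each way, the 8 genes with most changes (ties kept), up to 4 per direction and gene list, Nup98 and Hoxd13. Some items that the rule names are not reported here. Tank, Mnat1, Mir196b and Mir744 were chosen after their values were seen. Python 3.11.15, pandas 2.3.3, numpy 2.4.6 and matplotlib 3.10.9 were used, and merging was tested on simulated lists.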

Additional observations from a re-analysis of the deposited data

Results flagged for a closer look

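In 4 regions the change between wild type and NUP98-HOXD13 was strong with 81961 peaks per list, and the pair with Flt3-ITD went the opposite way. All 4 were lost, with a peak in wild type and none in NUP98-HOXD13, and all 4 had a peak in NUP98-HOXD13/Flt3-ITD and none in Flt3-ITD. The difference was not tested, since each group had 1 list. The region nearest to Gm7361 (chromosome 5, 26282191 to 26282671) was at −log10 p 178 in wild type and 19.6 in NUP98-HOXD13/Flt3-ITD. The one nearest to Olfr711, an olfactory receptor gene (chromosome 7, 106967556 to 106967830), was at 184 and 25.9. The remaining ones had no protein-coding gene within 100 kb. On chromosome 10 (97160105 to 97161228) the values were 200.0 and 28.8, and on chromosome 12 (49951643 to 49952250) they were 199 and 26.9.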

How the results depend on the processing

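The counts of gained, lost and shared regions moved by under 1.5 times with equal numbers of peaks, with an overlap of 50% of the shorter region, and with a margin of 500 bp. With peaks of −log10 p 10 or more, gained regions were 7371, strong gains 34 and strong losses 186. With set-1 wild type there were 18128 gained and 12171 lost regions, 352 strong gains and 93 strong losses. With equal numbers of regions, an alternative chosen after seeing the data, lost regions were 13632, strong gains 40 and strong losses 65. A cut at the top 10% left 2 strong gains and 16 strong losses. Of the 44 gene list counts, 44 stayed within 1.5 times with equal numbers of peaks, 39 with genes within 20 kb, 29 with equal numbers of regions and 20 with set-1 wild type. The causes were not tested, and −log10 p and list length move with a depth that is unknown here. No paired analysis was possible because each group has 1 list for its 2 samples, although the labels number them 1 and 2. For the same reason no sample could be left out.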
